A study of Mus musculus with 8 samples.

Results

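The libraries described here hold the whole RNA of the tissue from which AgRP-neuron ribosomes were purified. They are 4 input libraries of the 8 libraries of the study, chosen by their label and not by any measured value. The study used translating ribosome affinity purification, which pulls ribosomes out of a homogenate by a GFP tag on their protein RpL10a. The input is RNA of that homogenate before capture, so it comes from every cell type of the dissected piece. Each input library was made from 3 pooled mice of mixed genders, 11 to 12 weeks old and random-fed. All of these mice were Mfffl/fl, were AgRP-IRES-Cretg/wt at the Agrp locus and were RpL10a-GFPfl/wt, so that Cre made there removes Mff and turns on the tagged ribosomal protein. Cells without Cre are not targeted, and the input holds RNA of both. The tissue label is hypothalamus. The protocol describes a 3 mm coronal slice, cuts 1 mm to each side of the third ventricle and a horizontal cut above the arcuate nucleus. All 8 libraries are labelled as Mff knockout, so no control genotype was analysed here, and input was not compared with captured RNA.

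The hypothalamus sits at the base of the brain and controls feeding, body temperature, water balance, stress hormones and reproduction. Its neurons are divided into small nuclei, many of which are known by the peptide they release. Melanin-concentrating hormone and hypocretin are made in the lateral hypothalamus, vasopressin and oxytocin in the paraventricular and supraoptic nuclei, and AgRP, NPY and POMC in the arcuate nucleus. In bulk RNA the level of a transcript reflects both the number of cells that make it and the amount made per cell, and fewer cells of a type cannot be told apart from less RNA per cell.

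The libraries held between 44112823 (replicate 3) and 74607637 (replicate 2) estimated counts. Ribosomal RNA features took 38.4% ± 1.44 (SD, n = 4) of them, from 36.3% in replicate 2 to 39.4% in replicate 1. The ribosomal RNAs of the mitochondrial genome, mt-Rnr2 and mt-Rnr1, alone took 16.7% ± 0.98 and 10.8% ± 0.36 of all counts. All ribosomal RNA features were left out of everything that follows. The counts that remained, between 27165003 and 47524659 in a library, are the total by which each count was divided to give its CPM. To compare genes with each other, counts were divided by transcript length in kb and rescaled to the same total in every library, and this value per length is named TPM here. CPM is used to compare the same gene or list between libraries and for the detection limit. Shares of counts and ranks by CPM take no account of length.

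The promoters of the highest peptide precursor genes were looked at because these genes carry most of the peptide RNA of the tissue. Over the whole precursor list, TATAAA lay near the start more often than over all genes, though most precursors lacked it. The 120 bases before the RefSeq transcription start are printed 5′ to 3′ for 4 of the 5 precursors with the highest TPM and for the arcuate genes Npy and Pomc (build GRCm38.p6). Capitals mark TATAAA or, where that was absent, ATAAA in the last 40 bases before the start, read on the transcribed strand. None of the 6 windows overlaps a gene of the GENCODE annotation. Each of them holds TATAAA or ATAAA, and the windows of Cck, Pcsk1n, Gal and Chga, which hold neither there, are not printed.
Pmch, chr10:88090952-88091071, plus strand: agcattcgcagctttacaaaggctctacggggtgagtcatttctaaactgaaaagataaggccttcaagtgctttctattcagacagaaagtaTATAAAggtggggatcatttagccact
Avp, chr2:130582589-130582708, minus strand: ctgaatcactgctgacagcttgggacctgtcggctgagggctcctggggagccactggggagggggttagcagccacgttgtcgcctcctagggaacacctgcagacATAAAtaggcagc
Hcrt, chr11:100762932-100763051, minus strand: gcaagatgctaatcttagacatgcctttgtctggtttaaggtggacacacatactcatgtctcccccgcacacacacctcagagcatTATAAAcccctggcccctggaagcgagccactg
Oxt, chr2:130576049-130576168, plus strand: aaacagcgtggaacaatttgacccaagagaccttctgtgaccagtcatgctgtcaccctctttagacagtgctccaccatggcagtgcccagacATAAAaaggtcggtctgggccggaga
Npy, chr6:49822590-49822709, plus strand: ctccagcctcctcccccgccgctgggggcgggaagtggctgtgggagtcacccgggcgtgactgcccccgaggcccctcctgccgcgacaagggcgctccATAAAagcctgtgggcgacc
Pomc, chr12:3954825-3954944, plus strand: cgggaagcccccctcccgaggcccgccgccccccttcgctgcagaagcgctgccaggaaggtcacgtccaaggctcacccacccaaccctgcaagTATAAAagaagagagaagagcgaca

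TATAAA began at base -27 in Pmch, at base -33 in Hcrt and at base -25 in Pomc, counted from the start site. ATAAA began at base -26 in Oxt, at base -20 in Npy and at base -13 in Avp. TATAAA, which contains ATAAA, is the core of the TATA box that places the start of transcription of many tissue-restricted genes. Of the 76 precursor genes listed, 58 had a promoter entry in the RefSeq table, and TATAAA lay in the last 40 bases of 12 of them (20.7%). The share was 2.78% over all 27025 genes with an entry and 1.64% over the 10226 detected protein-coding genes with one. ATAAA was found there in 18 of the 58 precursors (31.03%), against 6.53% of all genes. The letters TGACGTCA are the binding sequence of the factor CREB and are the same on both strands. They lay in the 300-base window (250 before the start and 50 after) of 5 of the 58 precursors (8.62%). The share was 2.03% over all genes and 3.60% over detected protein-coding genes. It was 13.3% in the immediate early list, 10.3% in the cytosolic ribosomal protein list and 7.14% in the clock list. The pan-neuronal, oligodendrocyte, astrocyte and fission and fusion lists had none. Among the 15 precursors with the highest TPM, 14 had an entry and 4 of them (Scg2, Sst, Chgb and Cartpt) held TGACGTCA. TATAAA lay near the start in 2 of these 14 (14.3%) and ATAAA in 6 (42.9%), and Scg2, Cck, Pcsk1n, Sst, Chgb, Cartpt, Gal and Chga had neither. The share with TATAAA was 18.9% of the 37 precursors detected in the input and 23.8% of the 21 that were not detected. A match of letters is a description and not a shown binding site.

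The transcriptome was broad. Of 45346 features outside ribosomal RNA, 14855 were detected, which here means a mean of at least 1 CPM, and 13496 of these were protein-coding. In every library 14138 features reached 1 CPM. A mean of 10 CPM was reached by 9769 features, 100 CPM by 2298 and 1000 CPM by 81. The 930 most abundant features held 50% of the counts and the 5836 most abundant held 90%. The 10 most abundant features of a library took 7.52% ± 0.37 of its counts and the 100 most abundant took 20.6% ± 0.44 (SD, n = 4). Protein-coding genes of the nucleus held 89.8% ± 0.64 of the counts, genes of the mitochondrial genome 6.27% ± 0.38, long noncoding RNA 2.09% ± 0.20 and pseudogenes 1.16% ± 0.09.

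**Figure D1:**
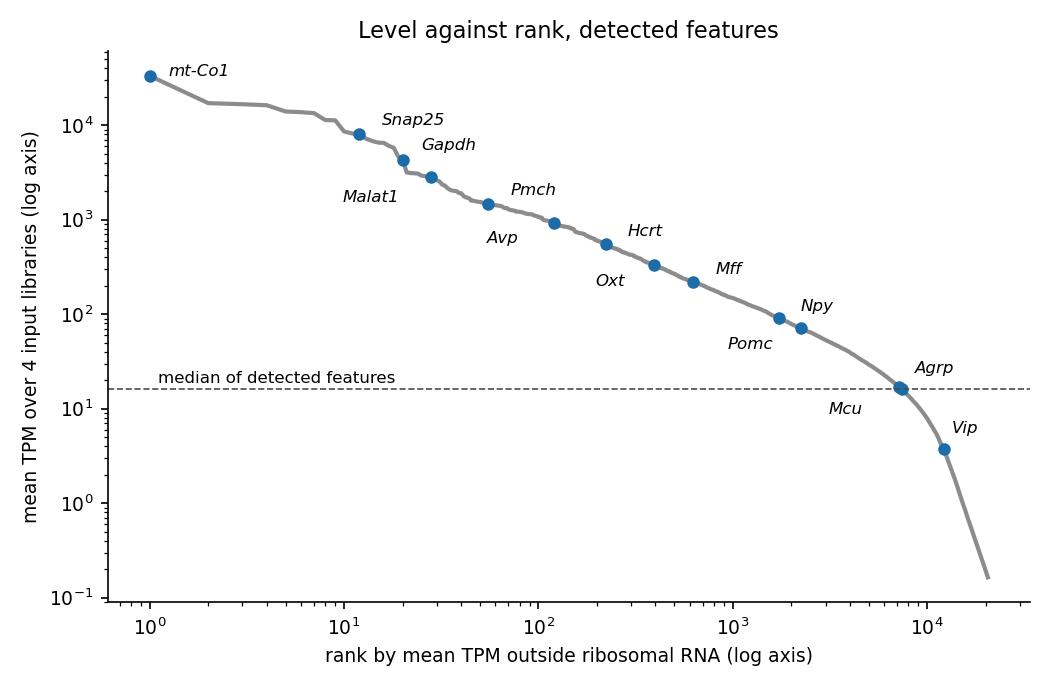
Mean TPM over the 4 input libraries (log axis) against rank (log axis) for detected features outside ribosomal RNA, with named genes as points and the median of detected features (16.1 TPM) as a dashed line. TPM fell from 33353 for mt-Co1 to 1079 at rank 100 and 148 at rank 1000, Pmch stood at rank 55, and Agrp stood near the median of detected features.

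The 3 highest features by TPM were genes of the mitochondrial genome. Among small noncoding features, Rn7sk, the 7SK RNA that restrains transcription elongation, had 6544, 11752, 9156 and 6894 TPM (mean 8587 ± 2407, rank 10), with replicate 2 highest. Mir6236 was listed at 6052 ± 1153 TPM (rank 17) on a feature of 123 bases. It was kept because its annotated type is miRNA, and it was not compared with the full set of ribosomal RNA sequences. Outside mitochondrial and cytosolic ribosomal protein genes, the protein-coding gene with the highest TPM was Snap25, a subunit of the complex that fuses synaptic vesicles with the membrane, at 8013 ± 413 TPM (SD, n = 4; rank 11 or 12 in every library). Its TPM was 7805, 8610, 7683 and 7954 in replicates 1 to 4, so replicate 2 was highest and the other 3 libraries lay close together. Calm2, which encodes the calcium sensor calmodulin, followed at 4659 ± 182 TPM, and Gapdh, of glycolysis, at 4333 ± 420 TPM. Vsnl1, a neuronal calcium sensor, reached 3164 ± 155 TPM.

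Proteins made mainly by glia or by the brain's coverings were also among the 30 highest. Cst3, the protease inhibitor cystatin C, had 3102 ± 624 TPM, and Ndrg2, which is abundant in astrocytes, had 2900 ± 289 TPM. Ptgds, the prostaglandin D synthase of leptomeninges and oligodendrocytes, had 2528 ± 754 TPM. The tubulins Tuba1b (2929 ± 137 TPM) and Tuba1a (2036 ± 139 TPM), the iron store Fth1 (3123 ± 238 TPM), the antioxidant enzyme Sod1 (2625 ± 114 TPM), the chaperone Hspa8 (2164 ± 297 TPM) and the elongation factor Eef1a1 (2020 ± 187 TPM) filled much of the rest. Pcp4, a calmodulin-binding protein, reached 2354 ± 312 TPM, and the imprinted gene Nnat, a small membrane protein of neurons and endocrine cells, reached 2301 ± 423 TPM. The head of the ranking was shared between libraries, with 27 of the 30 highest features, 86 of the 100 highest and 909 of the 1000 highest common to all 4.

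Genes of the mitochondrial genome that encode proteins held 6.26% ± 0.38 of the counts (SD, n = 4). These 13 genes encode subunits of the respiratory chain and of ATP synthase, and all 13 were detected. Their TPM ran from 33353 ± 2425 for mt-Co1, the catalytic subunit of cytochrome c oxidase, to 722 ± 68.2 for mt-Nd3. mt-Atp6 (17138 ± 1138 TPM), mt-Nd1 (16702 ± 632 TPM), mt-Nd4 (13983 ± 627 TPM), mt-Co2 (13758 ± 1271 TPM) and mt-Cytb (13444 ± 637 TPM) came next. The summed level of the 13 genes was 66542, 58079, 61042 and 64743 CPM in replicates 1 to 4. Replicate 2 was the lowest of the 4 libraries for 11 of the 13 genes, against 24.8% of all protein-coding genes of 10 CPM or more.

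A copy of part of the mitochondrial genome lies on chromosome 1. The order within the mitochondrial genome, its share of the counts and the share of pseudogenes depend on how reads were divided between the 2. Pseudogenes of that copy were among the highest features of the ranking and are described here after their values were seen. Gm10222 (chr1:24612407-24612700) is identical to mt-Nd4l over 294 bases, and the pseudogene held 90.6% ± 0.60 of the counts of the pair. Gm28661 (chr1:24614885-24615565) is identical to mt-Co2 over 681 bases and held 44.97% ± 2.24 of the counts of that pair, and Gm28437 (chr1:24613189-24613971) is identical to mt-Co3 over 783 bases and held 51.5% ± 2.68. Gm29216 (chr1:24615706-24616197) differs from mt-Co1 at 6 of 492 bases and held 9.81% ± 1.24. Gm10222, Gm28661, Gm28437 and Gm29216 had 1011, 3221, 2363 and 2348 CPM, which are counted with pseudogenes and not with the mitochondrial genome. The first 60 bases of 2 of these pseudogenes are printed beside the mitochondrial stretch to show how little a read has to tell them apart (build GRCm38, 5′ to 3′ on the strand of the gene). Capitals mark bases that differ.
Gm29216, chr1:24616138-24616197, minus strand: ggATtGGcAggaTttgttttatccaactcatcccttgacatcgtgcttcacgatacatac
mt-Co1, chrM:6381-6440, plus strand: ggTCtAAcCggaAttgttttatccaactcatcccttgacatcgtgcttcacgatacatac
Gm28661, chr1:24615506-24615565, minus strand: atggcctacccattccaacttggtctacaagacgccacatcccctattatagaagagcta
mt-Co2, chrM:7013-7072, plus strand: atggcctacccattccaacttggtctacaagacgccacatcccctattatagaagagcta

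All 6 differing bases of Gm29216 lie within this first stretch, and Gm28661 has none. The summed counts of a pair do not depend on that division. They were 1116 ± 73.0 CPM for mt-Nd4l with Gm10222, where mt-Nd4l alone had 105 CPM, and 7173 ± 631 CPM for mt-Co2 with Gm28661 (SD, n = 4). The predicted transcript with the highest TPM, Gm37376, lies on the plus strand inside Malat1 (chr19:5795690-5802672, minus strand), and all of its 31-base words occur in Malat1 when strand is ignored. Since the strand setting is not given, its 16290 ± 3588 TPM cannot be told apart from reads of Malat1.

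Peptide and hormone precursors formed a small but steep part of the transcriptome. Neuropeptides are cut from larger precursor proteins in the secretory pathway and released from dense-core vesicles. Of 76 precursor genes 47 were detected, and the list as a whole held 0.279% of the counts (2786 ± 133 CPM, SD, n = 4). The 3 highest precursors by TPM, Pmch, Avp and Hcrt, held 29.5% of the counts of the list and 49.4% of its summed TPM. The 15 highest held 80.8% of the counts and 87.9% of the summed TPM. The median member had 6.44 TPM, which lies at percentile 28.3 of detected features, so a few precursors stood far above the rest.

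Pmch, the precursor of melanin-concentrating hormone, had the highest TPM of all precursors, at 1469 ± 146 TPM (rank 55, between 44 and 72 in single libraries). It had 1615, 1566, 1303 and 1392 TPM in replicates 1 to 4, and replicate 3 was lowest. Avp, the precursor of vasopressin, which retains water in the kidney, had 910, 803, 681 and 1284 TPM. Its mean was 920 ± 260 TPM (rank 120), replicate 4 was highest, and its coefficient of variation (CV, the SD as a percentage of the mean CPM) of 29.3% was far above that of Pmch at 8.56%.

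Hcrt, the precursor of the wake-promoting hypocretins, had 576, 599, 488 and 571 TPM, with a mean of 558 ± 48.4 TPM (rank 222). Replicate 3 was again the lowest and the other 3 libraries lay within a narrow range. Oxt, the precursor of oxytocin, had 317, 296, 293 and 425 TPM, with a mean of 333 ± 62.5 TPM (rank 394), and replicate 4 was highest as it was for Avp. Vasopressin and oxytocin cells lie in the same nuclei, and the ratio of Avp to Oxt in TPM was 2.73 ± 0.30 (SD, n = 4), from 2.32 to 3.02. The ratio of Pmch to Hcrt, both made in the lateral hypothalamus by separate neurons, was 2.63 ± 0.15, from 2.44 to 2.80. Both ratios varied less between libraries than the level of Avp did.

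Among the other high precursors, Scg2 (secretogranin 2, 410 ± 27.7 TPM), Pcsk1n (an inhibitor of prohormone convertase 1, 262 ± 20.5 TPM) and Chgb (chromogranin B, 205 ± 10.3 TPM) are cargo of dense-core vesicles in many neurons. Cck, the precursor of cholecystokinin, had 236, 328, 250 and 348 TPM, and replicates 2 and 4 were above replicates 1 and 3. Sst, the precursor of somatostatin, which holds back growth hormone, had 181, 218, 222 and 251 TPM, with replicate 1 lowest and replicate 4 highest. Cartpt, whose peptide reduces feeding, had 141, 145, 143 and 108 TPM, and replicate 4 stood below the other 3. Tac1, the precursor of substance P, had 130, 102, 136 and 106 TPM, so replicates 1 and 3 were above replicates 2 and 4.

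Npy, which encodes the feeding-promoting neuropeptide Y, had 87.0, 101, 85.1 and 89.9 TPM (mean 90.7 ± 7.09, rank 1725), with replicate 2 highest. Gal (galanin) had 79.4, 79.6, 69.3 and 91.9 TPM and Enho (adropin) 76.0, 89.5, 73.6 and 78.0 TPM, ranges that overlap. Chga (chromogranin A) completed the 15 highest, with 70.3, 88.8, 72.8 and 75.7 TPM and replicate 2 highest. Just below came Tac2 (neurokinin B, 75.7 ± 5.22 TPM), Penk (enkephalins, 75.5 ± 4.32 TPM), Pomc (70.9 ± 9.68 TPM) and Ghrh (growth hormone-releasing hormone, 53.0 ± 10.9 TPM).

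Neighbours in this order often had ranges that overlap. Of the 46 pairs of neighbours among the 47 detected precursors, 38 had overlapping ranges over the 4 libraries and 8 did not. The ranges of Pmch and Avp, of Avp and Hcrt, and of Hcrt and Scg2 did not overlap. Those of Scg2 and Oxt, Oxt and Cck, Cck and Pcsk1n, Pcsk1n and Sst, and Sst and Chgb did. Overlap over libraries does not mean that the order changed within a library. In all 4 libraries Scg2 was above Oxt and Pcsk1n was above Sst. Oxt was above Cck, and Sst above Chgb, in 3 of the 4, and Cck above Pcsk1n in 2. Further down, Chgb and Cartpt, and Tac1 and Npy, did not overlap, whereas Npy and Gal did.

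**Figure D2:**
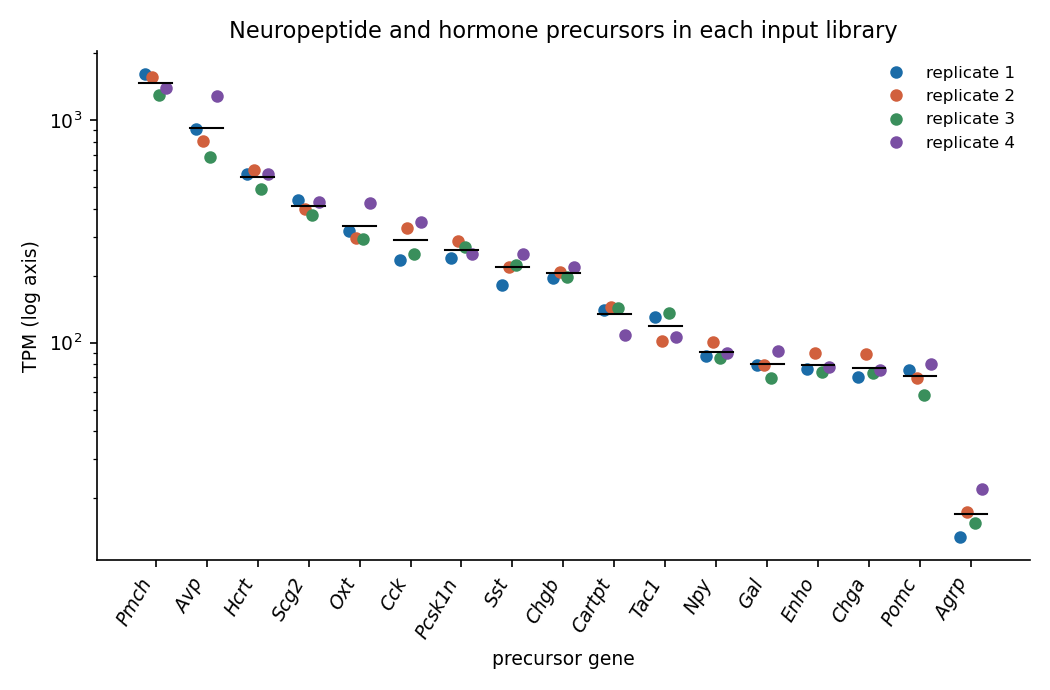
TPM (log axis) of the 15 precursors with the highest mean, and of Pomc and Agrp, in each of the 4 input libraries (coloured points), with the mean as a bar. Pmch, Avp and Hcrt stood apart at the top, Avp spread from 681 to 1284 TPM, and Agrp lay between 13.4 and 21.9 TPM.

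Agrp, the gene whose locus drives Cre and whose neurons are the subject of the study, was a minor transcript of the input. It had 13.4, 17.4, 15.4 and 21.9 TPM in replicates 1 to 4 (mean 17.0 ± 3.65, rank 7193), with replicate 1 lowest and replicate 4 highest. That level is close to the median of 16.1 TPM of all detected features. Within each library Pmch was 63.5 to 121 times as abundant as Agrp in TPM, Hcrt 26.1 to 43.1 times and Pomc 3.68 to 5.67 times. Npy, which AgRP neurons also make and which cells elsewhere in the brain make too, was 5.48 ± 1.01 times as abundant (SD, n = 4), from 4.10 to 6.51. Arcuate transcription factors were low in TPM, with 15.7 ± 2.38 for Isl1, 5.31 ± 0.25 for Tbx3 and 2.39 ± 0.41 for Bsx, and Kiss1, a precursor that controls reproduction, had 1.19 ± 0.34 TPM.

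Between Ghrh and Agrp lay 11 precursors, from Nxph1 at 47.3 ± 4.16 TPM through Cbln1, Vgf, Trh, Adcyap1, Nucb2, Cbln4, Pdyn, Nts and Cbln2 to Apln at 17.8 ± 2.82 TPM. Trh, which drives the thyroid axis, had 28.0 ± 3.10 TPM, and Pdyn, the precursor of dynorphins, had 24.2 ± 3.18 TPM. Below Agrp came Npvf, Nxph4, Pnoc, Gnrh1, Bdnf, Calca, Igf1, Nmb, Nppc, Pthlh, Ucn3, Vip, Grp, Prok2, Qrfp and Edn3, the last at 1.23 ± 0.37 TPM. Gnrh1, whose few neurons drive the pituitary gonadotropins, had 10.4 ± 3.03 TPM, and Vip, of the suprachiasmatic nucleus, had 3.71 ± 1.49 TPM, with replicate 4 highest.

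Precursors with a mean under 1 CPM but with some counts numbered 24. They were Npb, Ucn, Gast, Nms, Crh, Adm, Kiss1, Npff, Rln3, Nppa, Nmu, Spx, Sct, Prlh, Apela, Npw, Edn1, Calcb, Galp, Cort, Iapp, Uts2b, Ins2 and Gcg. Crh, which starts the hormonal stress response, averaged 0.92 CPM and so fell just short of detection. A further 5, Ucn2, Gip, Pyy, Ins1 and Ppy, had no count in any library, and most of these are hormones of gut or pancreas.

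The machinery that turns precursors into peptides was present throughout. All 15 listed processing and granin genes were detected, with a median of 76.8 TPM (percentile 86.1 of detected features). Cpe, the carboxypeptidase that trims the cut ends, had 1150 ± 99.3 TPM and was the highest. Of the convertases that cut precursors, Pcsk2 had 52.8 ± 4.41 TPM and Pcsk1 9.63 ± 0.67 TPM, a ratio of 5.49 ± 0.50 (SD, n = 4) that ran from 4.92 to 6.13. Scg5, a chaperone of PC2, had the widest spread of the list, with 109, 88.5, 104 and 136 CPM in replicates 1 to 4.

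Medians of the marker lists of neurons, erythrocytes, oligodendrocytes and astrocytes lay above the median of detected features, and those of the other cell classes lay below it. The medians are levels of the markers and do not measure shares of cells. All 14 pan-neuronal markers were detected, with a median of 384 TPM (percentile 97.7 of detected features, where the median feature had 16.1 TPM). After Snap25 came Uchl1 (729 ± 56.0 TPM), a deubiquitinase of neurons, Map2 (669 ± 50.5 TPM), a microtubule protein of dendrites, and Stmn2 (602 ± 44.7 TPM). The summed pan-neuronal level varied little, at 12898, 13764, 12953 and 13192 CPM in replicates 1 to 4.

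Astrocytes take up transmitters and feed neurons, and oligodendrocytes make myelin. All 16 astrocyte markers were detected (median 91.8 TPM, percentile 88.5), led by the glycolytic enzyme Aldoc at 1205 ± 95.2 TPM, glutamine synthetase Glul at 973 ± 65.4 TPM and the glutamate transporter Slc1a2 at 533 ± 54.0 TPM. All 16 oligodendrocyte markers were detected as well (median 140 TPM, percentile 92.7), with the myelin genes Mbp at 588 ± 81.5 TPM, Cnp at 389 ± 36.0 TPM and Mobp at 310 ± 40.3 TPM. Precursors of oligodendrocytes were represented by 10 of 10 markers with a median of 14.2 TPM (percentile 46.7). Olig1, a factor of the whole lineage, led that list with 143 ± 10.2 TPM, and Pdgfra, which marks the precursors themselves, had 9.62 ± 0.64 TPM.

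Microglia, the resident immune cells, had all 13 markers detected at a median of 11.2 TPM (percentile 40.8). Tyrobp led with 83.5 ± 3.27 TPM, and the microglia-restricted receptor P2ry12 had 13.4 ± 0.70 TPM. Endothelial cells had 11 of 12 markers detected but a median of 1.31 TPM (percentile 5.46). Their glucose transporter Slc2a1 had 30.5 ± 3.39 TPM, whereas the adhesion molecule Pecam1 had 0.83 TPM and the tight-junction protein Cldn5, the single endothelial marker under 1 CPM, had 0.452, 0.379, 1.03 and 0.182 CPM in replicates 1 to 4. Mural cells around vessels had a median of 2.40 TPM (8 of 10 detected), led by Rgs5 at 24.5 ± 1.99 TPM. Acta2, the actin of smooth muscle, had 2.60, 10.3, 7.81 and 1.31 CPM, so replicates 2 and 3 were above replicates 1 and 4.

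Cells that line the third ventricle were seen at low levels. Tanycytes, which span from the ventricle into the arcuate nucleus, had 11 of 12 markers detected and a median of 6.03 TPM (percentile 27.1), led by Vim at 16.2 ± 3.40 TPM, the thyroid hormone activating enzyme Dio2 at 12.0 ± 1.91 TPM and Gpr50 at 11.9 ± 1.48 TPM. Rax, the marker most restricted to tanycytes, had 0.62 TPM and was under 1 CPM. Ciliated ependymal cells had 9 of 10 markers detected and a median of 8.81 TPM, led by Rsph1 at 28.1 ± 2.10 TPM.

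Signs of neighbouring tissues and of blood were also measured. The haemoglobin genes Hbb-bs (607 ± 133 TPM) and Hbb-bt (287 ± 54.6 TPM) were high, as were Hba-a1 and Hba-a2, whose near-identical copies share reads. Markers of neutrophils and lymphocytes were not detected, with 0 of 10 at 1 CPM and Ly6g at no count. Of 10 choroid plexus markers 6 were detected, and Ttr, which carries thyroid hormone in the fluid of the ventricles, had 8.85, 30.2, 6.41 and 10.8 CPM, with replicate 2 far above the others. The choroid genes Folr1, Aqp1, Slc4a5 and F5 stayed below 1 CPM. Hormones of the anterior pituitary differed widely between libraries, with Gh at 6.05, 0.084, 0.957 and 9.06 CPM and Prl at 6.84, 0.084, 0.258 and 0.473 CPM. Tshb, by contrast, lay between 4.52 and 5.74 CPM in all 4 libraries, and Pou1f1 had no count in any.

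**Figure D3:**
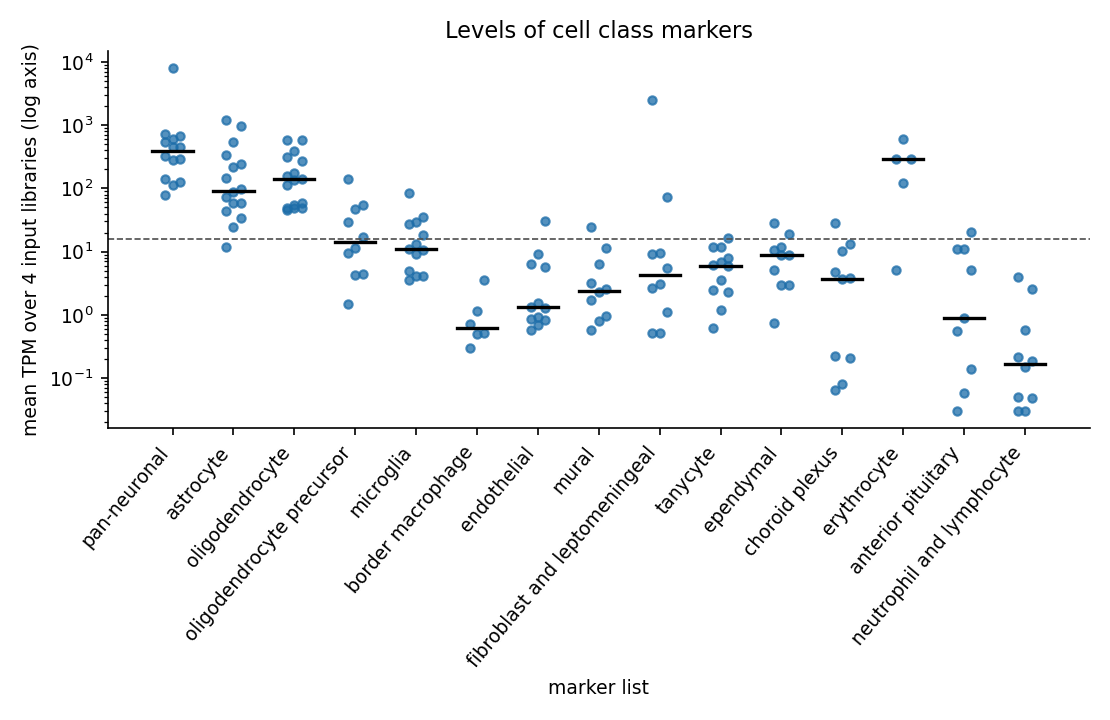
Mean TPM over the 4 input libraries (log axis) of each marker gene (points) by cell class, with the median of each list as a bar and the median of detected features (16.1 TPM) as a dashed line. Values under 0.03 TPM are drawn at 0.03, and a member without a transcript length is left out. Medians of neuronal, astrocyte, oligodendrocyte and erythrocyte lists lay above the line and those of the other 11 lists lay below it.

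Marker lists of hypothalamic nuclei were all represented. The lateral hypothalamic list had the highest median of the hypothalamic lists (24.2 TPM), followed by the paraventricular and supraoptic list (20.7 TPM), the ventromedial list (18.8 TPM), the arcuate list (16.4 TPM) and the mammillary and tuberomammillary list (12.4 TPM). The dorsomedial list (6.51 TPM) and the suprachiasmatic and preoptic list (4.78 TPM) had lower medians. Of the ventromedial markers, Adcyap1, which encodes the peptide PACAP, had 26.9 ± 3.21 TPM and the transcription factor Fezf1 had 24.7 ± 2.08 TPM. The members of this list ran from 2.34 to 26.9 TPM. The transcription factor Nr5a1 was lower than Fezf1, at 0.152 ± 0.015 times its TPM. Hdc, the histamine-making enzyme of tuberomammillary neurons, had 24.4 ± 3.10 TPM. Otp, a transcription factor of neurosecretory cells, had 52.3 ± 6.29 TPM.

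Markers of regions next to the hypothalamus were present too. The thalamic list had a median of 32.4 TPM with 8 of 10 members detected, led by the transcription factor Tcf7l2 at 139 ± 17.3 TPM. Prkcd, a kinase of thalamic relay neurons, had 55.3, 75.6, 38.5 and 98.5 CPM, so replicate 4 was highest and replicate 3 lowest. The cortical and hippocampal list had a median of 4.38 TPM with 8 of 9 members detected, and its members ran from 0.149 to 97.1 TPM. In this list Slc17a7 had 7.01 ± 2.74 TPM and Neurod6 3.22 ± 2.03 TPM. The striatal list had a median of 11.5 TPM with 9 of 10 members detected, and its members ran from 0.315 to 118 TPM. Its highest member was Tac1, which is also on the precursor list. The receptor Drd1 had 2.51 ± 0.16 TPM, and Adora2a, the lowest member, had 0.315 ± 0.227 TPM. None of 8 hindbrain and spinal cord genes was detected. Hoxb5, Hoxb6, Hoxc5, Hoxa5 and Hoxd4 had no count in any library, and the glycine transporter Slc6a5 reached 0.245 ± 0.080 TPM.

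Genes of both fast transmitters of the hypothalamus were detected. The GABA list had a median of 16.1 TPM (percentile 49.9 of detected features) and the glutamate list one of 33.7 TPM (percentile 69.5). Gad2, the GABA-making enzyme of nerve terminals, had 638 ± 23.7 TPM (rank 189), with 645, 666, 610 and 629 TPM in replicates 1 to 4 and little spread. Gad1, its partner in the cell body, had 119, 144, 88.9 and 104 TPM, and the ratio of Gad2 to Gad1 was 5.74 ± 0.95 (SD, n = 4), with Gad2 higher in every library. Slc17a6, the vesicular glutamate transporter of the hypothalamus and thalamus, had 151 ± 4.37 TPM, and Slc32a1, which loads GABA into vesicles, had 37.0 ± 5.71 TPM. Their ratio was 4.14 ± 0.60 and ran from 3.36 to 4.73. Th, the rate-limiting enzyme of dopamine synthesis, had 86.0 ± 15.2 TPM and the dopamine transporter Slc6a3 36.3 ± 11.3 TPM, while Chat, which makes acetylcholine, had 1.41 ± 0.95 TPM.

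Receptors for metabolic hormones were expressed at low levels, with 19 of 23 detected and a median of 6.38 TPM (percentile 28.1). Ramp1 (33.6 ± 3.17 TPM) and Ramp3 (31.2 ± 10.6 TPM), partners of the calcitonin receptor family, led the list. Insr, the insulin receptor, had 15.8 ± 1.16 TPM and was 10.7 ± 1.14 times as abundant as the leptin receptor Lepr, which had 1.50 ± 0.22 TPM. The melanocortin receptor gene Mc3r had 2.07 ± 0.26 TPM and the ghrelin receptor gene Ghsr 2.34 TPM. Klb, Gipr, Gcgr and Gfral were under 1 CPM. Among nuclear hormone receptors all 12 were detected, and the thyroid hormone receptor Thra stood highest at 311 ± 24.6 TPM, before the glucocorticoid receptor Nr3c1 at 50.9 ± 1.42 TPM and the progesterone receptor Pgr at 24.0 ± 1.46 TPM.

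Mff, the gene deleted in AgRP cells, encodes the outer-membrane receptor that recruits the fission enzyme DRP1 to mitochondria. In the input it had 200, 191, 209 and 176 CPM in replicates 1 to 4, or 221 ± 16.4 TPM (rank 627), with replicate 4 lowest. Dnm1l, which encodes DRP1, had 208 ± 20.3 TPM, so the ratio of Mff to Dnm1l was 1.07 ± 0.09 and lay on both sides of 1. That ratio holds for the longest transcript of each gene and depends on the length taken. With the median transcript length the means were 199 TPM for Mff and 163 TPM for Dnm1l. Of the other receptors, Fis1 had 314 ± 8.80 TPM, Mief1 11.2 ± 0.39 TPM and Mief2 6.78 ± 0.83 TPM. The fusion genes Opa1 (87.6 ± 6.24 TPM), Mfn2 (66.8 ± 6.70 TPM) and Mfn1 (39.1 ± 2.61 TPM) were lower than Mff in each library. Of the 18 listed fission and fusion genes 17 were detected, with a median of 52.9 TPM (percentile 79.6).

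The uniporter that carries calcium into mitochondria was uneven in its parts. Smdt1, its small regulatory subunit, had 426 ± 24.6 TPM, while the pore subunit Mcu had 16.1 ± 1.46 TPM. Among its calcium-sensing gatekeepers Micu3, which is enriched in neurons, had 169 ± 11.2 TPM, against 31.05 ± 1.13 TPM for Micu2. The sodium-calcium exchanger Slc8b1 had 1.38 ± 0.38 TPM. Summed over the 11 genes of this list, the level was 1170, 1180, 1183 and 1178 CPM, the smallest relative spread between libraries of the 47 lists (CV 0.463%). This is the spread of the sum. Single members of 10 CPM or more had a median CV of 5.87%, against 6.72% over all protein-coding genes of that level.

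Long noncoding and imprinted RNAs were high in these libraries. Malat1, a nuclear RNA, was the feature with the second highest mean CPM, at 9060, 6781, 9147 and 8177 CPM, and ranked 28 by TPM. Its level per length depends on the transcript taken, being 2827 TPM with the longest transcript and 21032 TPM with the median length. Gas5 (501 ± 59.1 TPM), Meg3 (312 ± 84.0 TPM), Peg13 (215 ± 4.97 TPM) and Rian (177 ± 17.5 TPM) followed among long noncoding genes. Meg3 had 2371, 1156, 1950 and 2156 CPM, with replicate 2 lowest. Of the 19 long noncoding RNAs listed, 11 were highest in replicate 3 and none was lowest there, while 9 were lowest in replicate 2. Over all protein-coding genes of 10 CPM or more, 27.8% were highest in replicate 3, 23.2% lowest there and 24.8% lowest in replicate 2. Peg13 by contrast had 428, 427, 429 and 422 CPM. Of 27 imprinted genes, which are expressed from a single parental allele, 24 were detected with a median of 109 TPM (percentile 90.2). After Nnat came Nap1l5 (1261 ± 120 TPM), Snrpn (1146 ± 80.8 TPM) and Gnas (1079 ± 76.0 TPM). Snurf, which shares its transcript with Snrpn, had no count in any library, and reads of the shared transcript cannot be told apart.

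The pools are labelled as mixed genders. Xist, made from the inactive X chromosome of female cells, had 5.20, 6.58, 9.22 and 6.90 CPM in replicates 1 to 4, or 0.925 ± 0.211 TPM (percentile 2.83 of detected features). The Y-linked gene Ddx3y had 53.5, 44.9, 44.9 and 33.5 CPM, Uty 22.3, 17.0, 18.1 and 11.6 CPM, Kdm5d 25.4, 20.6, 22.2 and 16.1 CPM and Eif2s3y 9.30, 8.23, 5.96 and 3.97 CPM. Each of these 4 genes was lowest in replicate 4, whereas Xist was lowest in replicate 1 and highest in replicate 3. All 4 libraries held counts of both Xist and Y-linked genes. How many females and males entered each pool is not given in the sources used here. The strand setting is not given either, so reads of Xist and of its antisense gene Tsix cannot be told apart. These counts therefore do not test the label of mixed genders.

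The 4 libraries were close to each other over most genes. Over the 9525 nuclear protein-coding genes with a mean of 10 CPM or more, the median CV was 6.72%, 95% of genes lay below 14.7% and 99% below 22.0%. Counting alone would give a median CV of 2.68% at this depth if counts were Poisson distributed. A CV above 20% was found for 133 genes (1.396%), and 25 genes (0.262%) differed by more than 2-fold between their lowest and highest library. edgeR's common biological coefficient of variation was 7.78%. Across genes, log2 CPM of pairs of libraries had a Pearson correlation of 0.992 to 0.995, as a description over genes, which are not independent replicates.

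The gene with the widest spread was Ttr (CV 77.5%). Next came Pagr1a (53.8%), with 9.61, 20.8, 21.7 and 6.18 CPM, Aebp1 (48.9%), with 4.01, 16.4, 10.5 and 10.5 CPM, and Pttg1 (48.0%), with 22.6, 26.8, 8.80 and 35.9 CPM. Other genes among the 20 widest were the matrix protein Fmod, with 6.39, 22.2, 19.4 and 14.1 CPM, the retinoic acid-making enzyme Aldh1a2, with 5.82, 18.2, 13.7 and 16.2 CPM, and the calcification inhibitor Mgp, with 6.50, 15.2, 10.2 and 14.96 CPM. Fmod, Aldh1a2 and Mgp, like the transporters Slc13a4 and Slc6a20a, were lowest in replicate 1. Rab37, Prkcd, Ramp3 and the sodium channel subunit Scn4b were highest in replicate 4.

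The narrowest spreads were looked for among protein-coding genes of 100 CPM or more. Tnr, a matrix protein around neurons, had 222, 224, 221 and 222 CPM (CV 0.422%), and Chtop, an mRNA export factor, had 154, 153, 154 and 152 CPM (CV 0.434%). Gna11, Ubxn4, Dctn5, Klc1, Gabrg3, Tnrc6b and Ywhah all had a CV under 1%. With 4 libraries the CV of a single gene is itself imprecise, and 683 genes (7.17%) had a CV below their Poisson value.

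**Figure D4:**
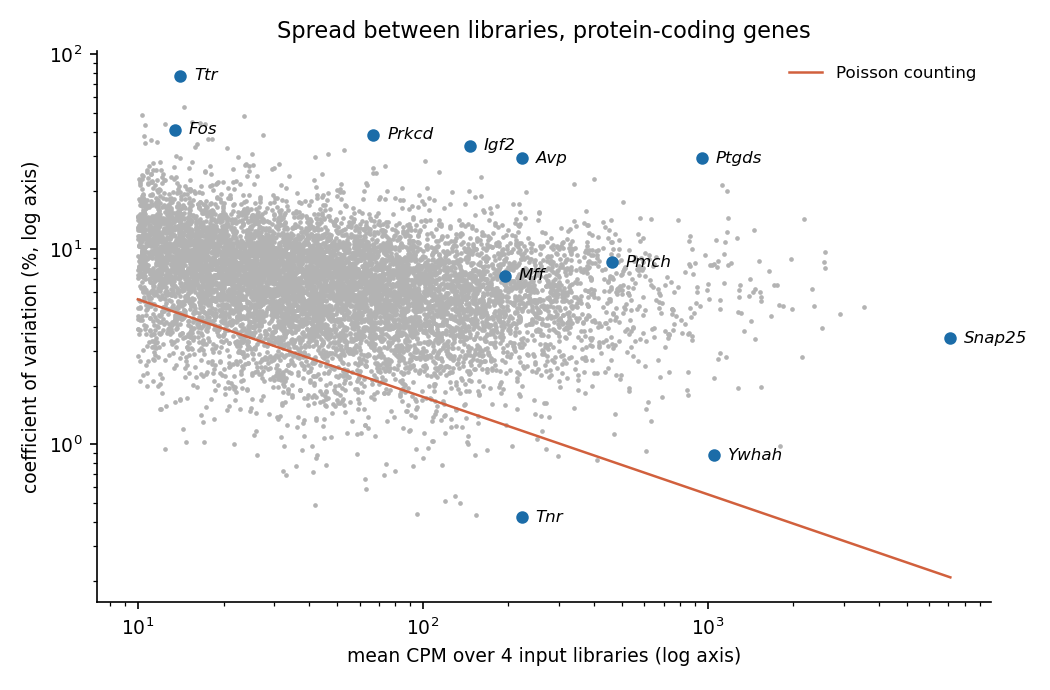
Coefficient of variation over the 4 input libraries (%, log axis) against mean CPM (log axis) for 9525 protein-coding genes, with the value from Poisson counting alone as a line and named genes as blue points. Ttr (77.5%) and Fos (40.9%) stood above the bulk, whose median was 6.72%, and Tnr (0.422%) lay below the line.

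Several gene groups moved together between libraries. Of the 78 cytosolic ribosomal protein genes, 73 were highest in replicate 3 and 54 were lowest in replicate 2, where 27.8% and 24.8% of all protein-coding genes of 10 CPM or more had their highest and lowest value. Their summed level was 22277, 21317, 25533 and 22638 CPM. Rpl10a, the gene of the tagged protein, had 873 ± 56.2 TPM and followed them, with 861, 813, 949 and 869 TPM.

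Immediate early genes, which are switched on within minutes of neuronal activity or handling, were also highest in replicate 3, for 17 of 19 members. Egr1 had 92.1, 87.6, 144 and 82.6 CPM, Fos had 14.96, 9.15, 20.7 and 9.17 CPM, and Npas4, which was named after its values were seen, had 3.93, 2.15, 6.0004 and 2.77 CPM. Arc and Egr4 were the members highest elsewhere, in replicate 2. The glucocorticoid-responsive list was lowest in replicate 1 for 9 of 10 members, against 23.1% of all protein-coding genes of 10 CPM or more. Sgk1 had 31.2, 42.02, 59.0 and 34.8 CPM.

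Markers of astrocytes, oligodendrocytes, microglia and erythrocytes were mostly highest in replicate 4, where 24.7% of all protein-coding genes of 10 CPM or more were highest. This held for 12 of 16 astrocyte markers, 13 of 16 oligodendrocyte markers, 11 of 13 microglial markers and all 5 erythrocyte markers. It held for 4 of 10 markers of oligodendrocyte precursors and for 2 of 11 detected tanycyte markers. Summed oligodendrocyte markers had 4260, 4526, 4267 and 5332 CPM, and summed erythrocyte markers 287, 294, 373 and 456 CPM. Avp, Oxt, Prkcd and Cst3 were highest in that library as well, and the Y-linked genes lowest.

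Meningeal genes were mostly lowest in replicate 1. Of 9 detected fibroblast and leptomeningeal markers, 7 were lowest there, against 23.1% of all protein-coding genes of 10 CPM or more. Ptgds had 583, 1193, 1141 and 900 CPM, the growth factor Igf2 had 72.9, 159, 180 and 174 CPM, and the transporter Slc22a6 had 1.72, 7.70, 7.40 and 3.86 CPM. Dcn was instead lowest in replicate 4, with 4.92, 8.98, 8.10 and 4.84 CPM, and Pdgfra was lowest in replicate 3. The summed level of the list was 700, 1414, 1381 and 1129 CPM, so replicate 1 held about 50% of the level of replicates 2 and 3. Most of that sum was Ptgds, with a mean of 954 CPM where the list had 1156 CPM. Whether these movements reflect the dissection, the animals or the handling of the tissue was not tested.

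**Figure D5:**
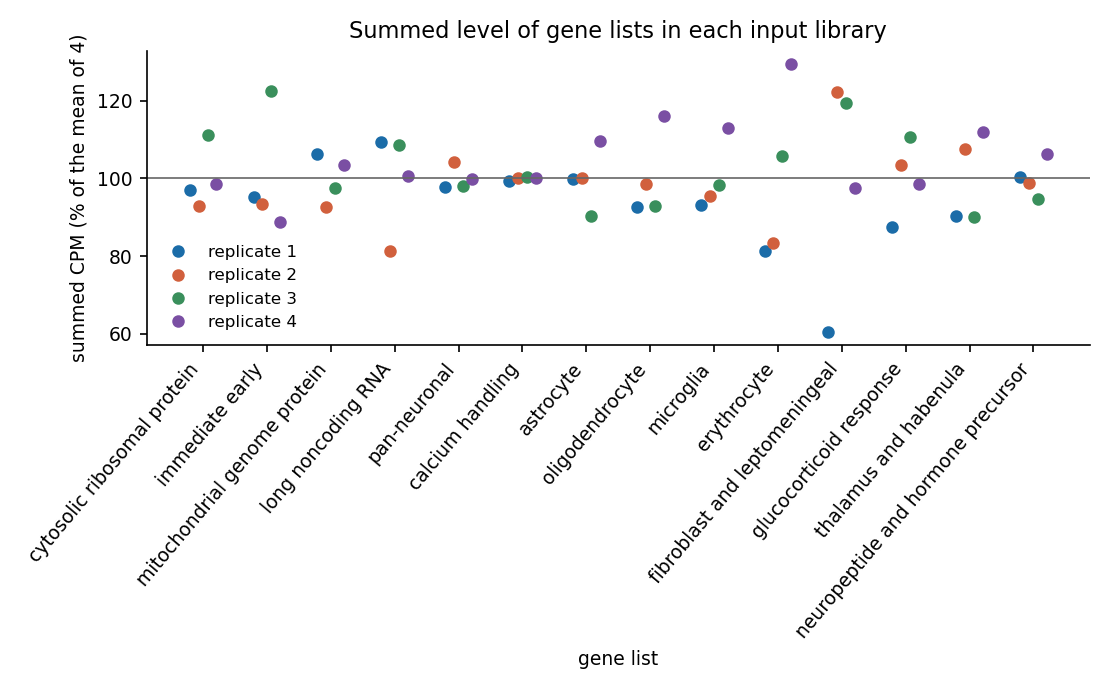
Summed CPM of 14 gene lists in each input library (coloured points) as a percentage of the mean of the 4 libraries. Ribosomal protein and immediate early lists were highest in replicate 3, astrocyte, oligodendrocyte, microglial and erythrocyte lists in replicate 4, and the fibroblast and leptomeningeal list was lowest in replicate 1.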

How the data were processed

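Whole-tissue input RNA of 4 libraries was analysed. Per the labels each library is a separate pool of mice, and replicate numbers come from the titles. The authors deposited estimated counts for each gene, made with Salmon 0.14.1 on GRCm38.p6, per the submitters' processing notes. Which annotation release was used, and whether strand was considered, is not given here. Salmon divides reads shared by several transcripts with a model, so near-identical genes have uncertain counts. The members and gene lists were chosen with earlier results of these data known.

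Gene type, coordinates and length came from GENCODE M21 (98.8% of identifiers matched, and 207 more by symbol). The 360 ribosomal RNA features (356 by type, 4 by name: both loci of Yam1, Lars2 and Gm26917) were removed, since they hold 38.4% of counts. CPM used the total outside them. TPM, computed here, used the longest protein-coding transcript, or the longest transcript of a gene without one. Detected means a mean of 1 CPM, and spread was taken at 10 CPM in protein-coding genes outside the mitochondrial genome. The biological coefficient of variation came from edgeR 4.0.16 in R 4.3.3 on counts rounded to whole numbers, with an intercept only. The spread measures were tested on simulated data. Lists numbered 47. The text names Mff, Agrp, Npy and Rpl10a, the 30 features with the highest TPM outside mitochondrial and ribosomal protein genes, all precursors, the 4 highest members of each other list with its widest member and those without counts, the 20 widest and 10 narrowest genes and the 5 highest long noncoding genes. Other genes were named after their values were seen, and a few that the rule names are not reported here. No groups were compared, and the only test was Dixon's test for a library apart from the other 3. Narrowest genes were taken from 100 CPM. Alternatives were another definition of ribosomal RNA, other totals, TMM factors, median length, other filters and leaving out each library.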

Additional observations from a re-analysis of the deposited data

Results flagged for a closer look

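In 13 of 237 list sums and named genes (5.49%), 1 library stood apart from the other 3 by Dixon's test at the 95% level. Chance flags about 1 in 20 groups that were not chosen by their values. Some of the genes, such as Scn4b, were named for their wide spread, so that rate does not hold for them. Of the 13 values, 6 were in replicate 4, 5 in replicate 3, 1 in replicate 2 and 1 in replicate 1. In replicate 4, Cst3 stood at 1475 CPM against 977 to 1041 in the others, and the complement gene C1qb at 19.6 CPM against 14.4 to 15.1. Scn4b was high there as well, at 16.1 CPM against 8.10 to 9.38, and the summed neutrophil and lymphocyte list reached 3.79 CPM against 1.33 to 1.64. Cartpt was low in that library at 57.1 CPM against 72.8 to 75.5, and so was the summed ventromedial list at 213 CPM against 241 to 245. In replicate 3, Egr1 was high at 144 CPM against 82.6 to 92.1. Hcrt was low there at 122 CPM against 141 to 143, Hsp90aa1 at 1317 CPM against 1477 to 1508, Nr3c1 at 135 CPM against 138.1 to 138.4, and the summed acetylcholine list at 62.1 CPM against 70.0 to 70.9. The summed choroid plexus list was high in replicate 2 at 114 CPM against 95.8 to 97.6. Without Ttr, an alternative chosen after seeing the data, the list summed to 86.9, 83.5, 91.2 and 85.8 CPM in replicates 1 to 4, and replicate 2 was lowest. The summed tanycyte list was low in replicate 1 at 107 CPM against 113.8 to 114.3.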

How the results depend on the processing

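No paired analysis was possible because the 4 input libraries form 1 group, with no other group to pair them with. With any count taken as detection, 27303 features were detected in place of 14855, and 41 of the 47 lists had a median above that of detected features in place of 22. With ribosomal RNA kept in the total, the protein genes of the mitochondrial genome held 3.85% of the counts in place of 6.26%. With those genes left out no share could be given. The median CV was 8.06% from 1 CPM and 5.54% from 100 CPM, in place of 6.72%. Leaving out each library in turn gave a median CV of 6.08% to 6.80%, lowest without replicate 4 and nearly as low (6.10%) without replicate 2, 14825 to 14894 detected features, a mitochondrial share of 6.13% to 6.41%, 927 to 935 features that hold 50% of the counts and 21 to 23 lists above the median. Over these 5 results, 57 of 64 alternative values stayed within the spread used for comparison (1 SD for a share, 1.5 times for a count). For the median CV that spread was 0.505 percentage points, a standard error made from the values with each library left out.

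Of 359 alternative values of single genes and lists, 92 moved by more. With the median transcript length 22 of 29 did, and the list median of astrocytes then lay at percentile 92.5, above that of oligodendrocytes at 89.7, the reverse of the order given (88.5 and 92.7). With the median length, Pmch had 948 TPM, Avp 594, Hcrt 386 and Agrp 12.0, and 13 of the 15 highest precursors kept a place among the 15, 7 of them at the same place. The detection limit of 1 CPM is 27.2 to 47.5 counts in these libraries.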

Other observations

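Clock genes were all detected, 16 of 16, with a median of 41.3 TPM (percentile 73.9 of detected features). The repressor Nr1d1 had 119 ± 16.2 TPM and the output factor Hlf 118 ± 9.81 TPM (SD, n = 4). Of the 16 genes, 9 were highest in replicate 2 and 10 were lowest in replicate 3, against 28.9% and 23.2% of all protein-coding genes of 10 CPM or more. Nr1d1 had 129, 155, 116 and 141 CPM in replicates 1 to 4. Per2, the widest member, had 17.3, 22.3, 16.2 and 17.0 CPM. The hour at which the mice were killed is not given in the sources used here.

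Heat shock genes, which include chaperones made in all cells, had a median of 276 TPM (percentile 96.8), and 7 of 10 were highest in replicate 4 while 6 were lowest in replicate 3, against 24.7% and 23.2% of those genes. Interferon-responsive genes were low, with 6 of 10 detected and a median of 2.92 TPM, led by Ifi27 at 39.4 ± 5.08 TPM. Border macrophages of the meninges and vessels had 2 of 6 markers detected. Their summed level was 3.36, 7.45, 6.22 and 7.61 CPM, lowest in replicate 1 as was that of the leptomeningeal list.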
